A study of Mus musculus with 24 samples.

Results

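The sarcomere and Z-disc genes described here are 39 genes that encode the contractile unit of heart muscle and the lattice that holds it, out of 41388 Ensembl genes in the deposited table. They were picked by gene symbol for their known roles, and each symbol was matched to 1 Ensembl identifier of the table. By role they comprise 7 genes of the thin filament, 3 of the thick filament, 4 of titin, nebulette and the M-band, 5 that set thin filament length or help filaments assemble, 8 of the Z-disc core, 4 of desmin, filamin and their chaperones, 3 for the Xin proteins and Nrap, and 5 of stretch signalling and protein turnover. All 39 had enough reads to be tested at each time point.

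Hearts came from male wild type Balb/c mice (BALB/cAnNCrl) that were immunized at 8 to 10 weeks of age to induce experimental autoimmune myocarditis (EAM), an inflammation of the heart muscle driven by T cells that recognize cardiac myosin. EAM mice received a peptide of the alpha isoform of myosin heavy chain in supplemented complete Freund's adjuvant (SCFA) on days 0 and 7, and pertussis toxin on day 0. Control mice received PBS in place of the peptide, with the same adjuvant and toxin, so the adjuvant and the toxin are common to all groups. RNA from a portion of each heart was sequenced on days 10, 15 and 21 (D10, D15 and D21) from the first immunization. Each day had 4 EAM and 4 control mice, which the study picked from those it had examined by flow cytometry. It chose samples, as far as possible, for the presence of inflammation, so the EAM hearts may not stand for all immunized mice.

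The sarcomere is the repeating unit of striated muscle, in which thin filaments of actin, tropomyosin and troponin slide past thick filaments of myosin when calcium binds to troponin. Thin filaments are anchored by alpha-actinin at the Z-disc, thick filaments are joined at the M-band, and titin spans from one to the other as a molecular spring. The Z-disc is tied to the neighbouring sarcomeres and to the cell membrane by desmin and filamin, and it carries proteins that respond to stretch.

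The libraries held between 15814863 and 24980864 counts. The 39 genes took 4.93 to 5.48% of the counts in the 12 control hearts. Their share was 3.92 to 5.01% in EAM hearts at D10, 2.78 to 3.77% at D15 and 4.34 to 6.0% at D21, so only at D15 did all EAM hearts lie below all control hearts in this share. The 32 cardiomyocyte genes outside the sarcomere that served as a reference (calcium handling, conduction and metabolism) had a summed level of 36049 to 40502 CPM (reads scaled to a common library size with TMM factors) in control hearts at D15 and 9946 to 22203 in EAM hearts. In whole tissue, fewer cardiomyocytes, less RNA per cardiomyocyte and more RNA from other cells cannot be told apart.

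Other cell types differed between the groups too. The summed level of 10 leukocyte genes was 249.98 to 478 CPM in control and 369.9 to 1962 in EAM hearts at D10, 190.4 to 236 and 2405 to 3125 at D15, and 175 to 309 and 534 to 2429.5 at D21, and all 10 genes passed the test at D15 and at D21. Of 6 fibroblast genes, 4 were higher in EAM hearts at D15, and all 5 endothelial genes were lower. The 5 atrial genes, which working ventricular muscle makes little of, summed to 209 to 507 CPM in control and 583 to 2049 in EAM hearts at D10, 240.4 to 2488 and 567 to 1777 at D15, and 1771 to 2790.4 and 55.9 to 181 at D21, where all 5 were lower in EAM hearts. Control replicate 4 of D15 stood apart from the other controls of that day, with an atrial sum of 240.4 CPM. Bmp10, 1 of the 5 atrial genes, was at 0.0669 to 0.276 CPM in EAM and 100.3 to 247 in control hearts at D21. In control hearts at D10 it was at 0 to 1.14 CPM, while Myl4, another of the 5, was at 87.9 to 198 CPM. The 4 EAM libraries of D21 also carry another library code in the labels than the other 20, so at D21 the code and EAM cannot be told apart. The part of atrial tissue in the results for the 39 genes was not tested.

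**Figure D1:**
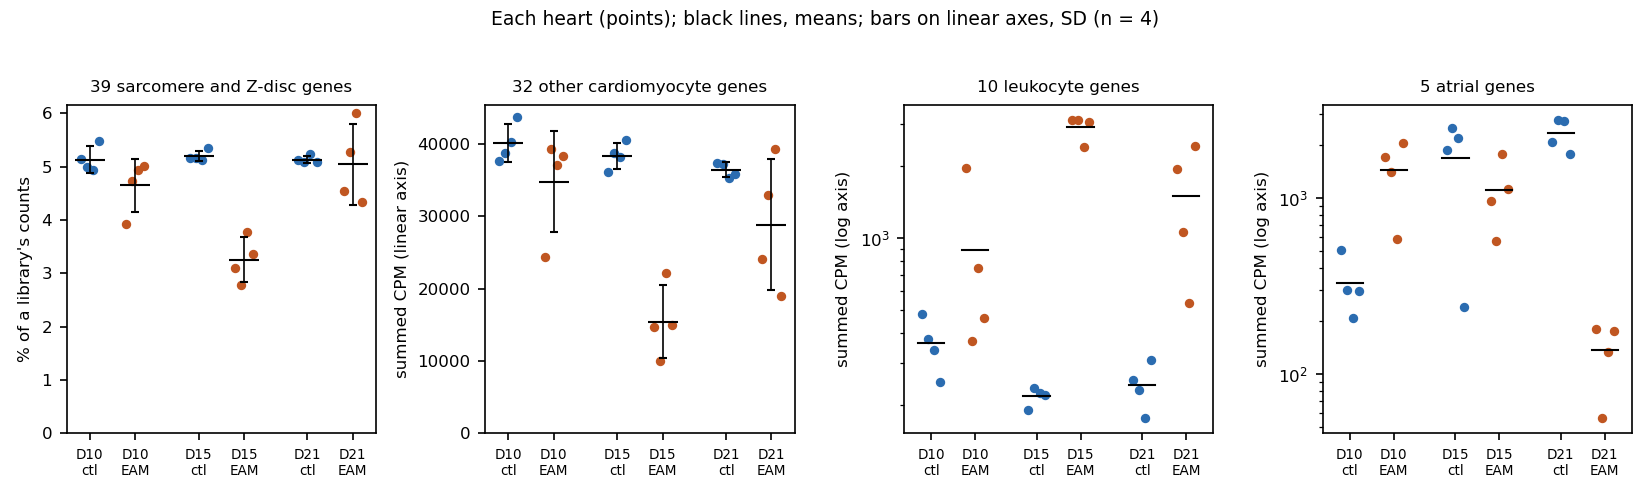
Share of counts taken by the 39 sarcomere and Z-disc genes (in %), and summed CPM of 32 other cardiomyocyte genes, 10 leukocyte genes and 5 atrial genes (the latter pair on log axes). Each point is 1 heart, blue for control and orange for EAM. Bars on linear axes give mean and SD (n = 4), and lines on log axes give means only. The share lies at 2.78 to 3.77% in EAM hearts at D15, below every control heart, and the atrial genes are lowest in EAM hearts at D21.

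In the 12 control hearts, levels per exon length (CPM per kilobase of exons, FPKM) spanned from 2184 ± 192 (SD, n = 12) for Actc1, the cardiac alpha-actin, to 0.274 ± 0.0962 for Tnni1, the slow skeletal troponin I that the heart makes before birth. Actc1 exceeded the next gene, Tnnc1 (1359 ± 106 FPKM), in all 12 hearts. Acta1 (1295 ± 233 FPKM) and Myl3 (1279.5 ± 109 FPKM) came next, and the order of these 3 was not the same from heart to heart. Tnnc1 exceeded Acta1 in 6 of 12 hearts, and Acta1 exceeded Myl3 in 7 of 12. Titin, encoded by Ttn, was second lowest per length at 28.7 ± 4.78 FPKM, on an exon length of 116825 bp. Tnni1 had as few as 9 reads in a library and is near the limit of what this depth can measure. Duplicate read pairs were removed before counting, which limits how many reads a short and abundant gene can keep. Actc1 held 17.9 to 50.5 reads per exon base across libraries and Ttn 0.17 to 0.689, and the effect of this step on the fold changes was not tested.

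At D15, 27 of the 39 genes were lower in EAM hearts and 2 were higher at a false discovery rate (FDR) under 0.01, by the quasi-likelihood test of edgeR, with p adjusted after Benjamini and Hochberg over the 15693 genes tested. Of all genes tested, 31.2% were lower and 33.3% were higher by that rule. With the further limit of a 2-fold change, 18 members were lower and 0 were higher, against 12.9% and 18.1% of all genes. Without control replicate 4, the heart low in atrial genes, 23 members were lower and 2 were higher, against 28.3% and 31% of all genes, and 14 were lower at least 2-fold, against 12.1%. DESeq2, limma-voom and the likelihood ratio test of edgeR each called 31 members lower and 2 higher, where they called 33.1%, 31.4% and 32.3% of all genes lower and 34.2%, 32.6% and 34.1% higher. Of the 29 calls, 22 held whichever heart was left out, and the 7 that did not are those of Acta1, Tnnt2, Tcap, Cmya5, Nrap, Ankrd23 and Flnc. The median log2 fold change of the members was -0.93, and that of all genes was 0.02. In 32 members all 4 EAM hearts lay below all 4 control hearts, which held for 34.2% of all genes, and in 2 members they lay above, which held for 36.2%. The falls were steepest for Lmod3 (chr6:97238534-97252759 of GRCm38), Fhl2 (chr1:43123074-43196984), Cmya5 (chr13:93040713-93144724), Fhod3 and Smyd1 (chr6:71213940-71322233), which are described with their roles. Reads of Tmod1 and Tstd2, Myom1 and Myl12a, and Cryab and Hspb2 could be confused where their exons overlap on opposite strands, since the sources used here do not give the strand setting of the counting.

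**Figure D2:**
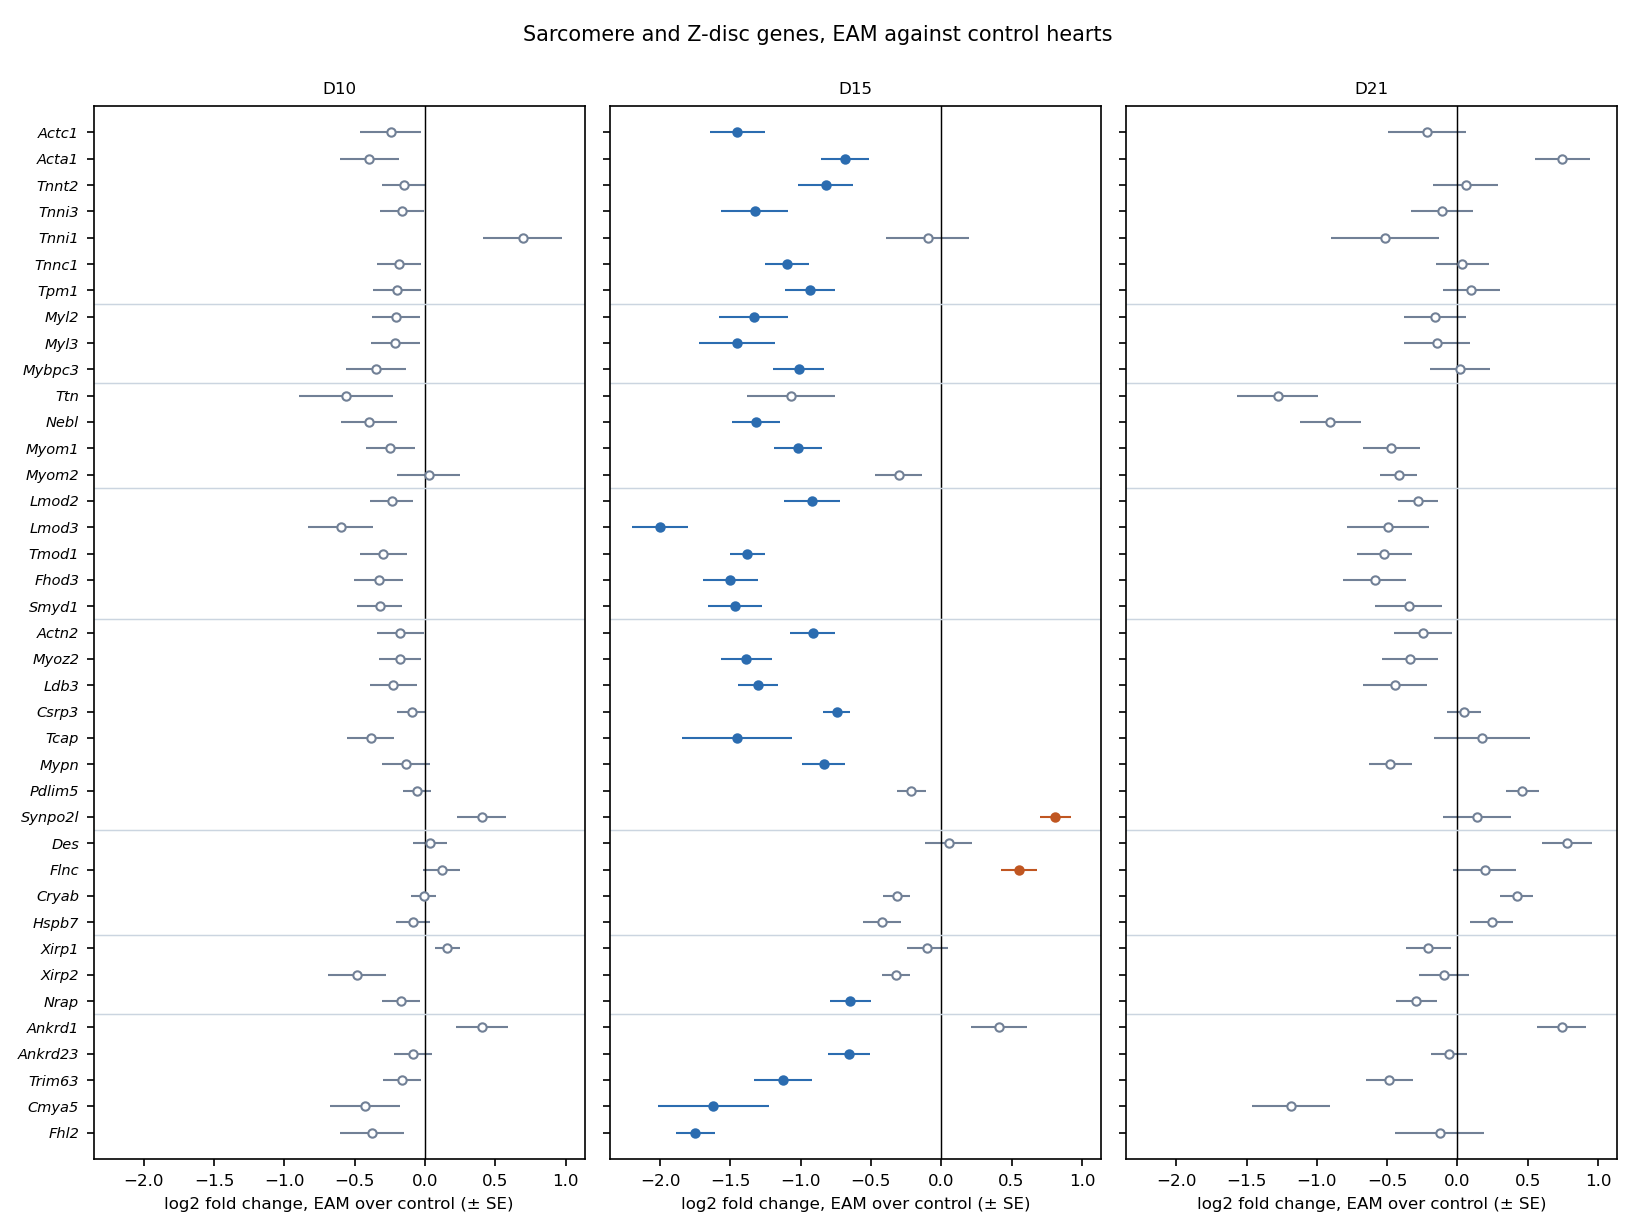
Log2 fold change of each of the 39 genes in EAM over control hearts (± SE, horizontal axis) at D10, D15 and D21, with grey lines between the 8 roles. Filled points passed an FDR of 0.01 (blue lower, orange higher), 29 at D15 and 0 at D10 and D21.

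Among thin filament genes, 6 of 7 fell at D15 and 3 of them at least 2-fold. Actc1 encodes the main actin of the adult heart. Its level was 3526, 3838, 3349 and 3807 CPM in control hearts and 1207, 1015, 1662 and 1289.9 CPM in EAM hearts. The groups lay far apart, and the log2 fold change was -1.45 ± 0.20 (FDR 0.000121). Acta1, the skeletal alpha-actin that the adult mouse heart makes at a lower level, was at 2206, 2061, 2240.2 and 2303 CPM in control and 1239, 1304, 1094 and 1704 CPM in EAM hearts. It fell too, without overlap of the groups, but by -0.68 ± 0.17 on the log2 scale (FDR 0.0048). The call was lost without any 1 of 6 hearts (all controls and EAM replicates 1 and 2, FDR 0.0101 to 0.0233), with total-count scaling (FDR 0.0166) and in the fit blocked on replicate number (FDR 0.0135), at log2 fold changes of -0.70 to -0.53.

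The cardiac troponin genes fell together at D15. Tnni3 encodes the inhibitory subunit of troponin in the adult heart. It was at 1818, 2019, 1813 and 1951 CPM in control and 719, 461, 1108 and 666 CPM in EAM hearts, a log2 fold change of -1.33 ± 0.24 (FDR 0.000732). Tnnt2 encodes the subunit that binds tropomyosin, and Tnnc1 the subunit that binds calcium. Tnnt2 was at 3342, 3901, 3690.4 and 3746 CPM in control and 1993, 1613, 2459 and 2024 CPM in EAM hearts, and changed by -0.82 ± 0.19 (FDR 0.00361). Without control replicate 2, 3 or 4 or EAM replicate 1 or 4 it did not pass (FDR 0.0104 to 0.0167), nor with the replicate number as a block (FDR 0.0176), while the log2 fold change stayed at -0.83 to -0.78. Tnnc1 went from 1435, 1537, 1410.3 and 1553 CPM in control to 671, 529, 870.2 and 635 CPM in EAM hearts, with a log2 fold change of -1.10 ± 0.16 (FDR 0.000166). No EAM heart reached the lowest control heart for any of these 3 genes. Tpm1, the tropomyosin that lies along the actin filament, changed by -0.93 ± 0.18 (FDR 0.00106). Tnni1, the isoform of the immature heart, was at 0.730, 1.004, 0.881 and 0.707 CPM in control and 0.458, 0.666, 1.18 and 0.733 CPM in EAM hearts, with overlapping groups and a log2 fold change of -0.10 ± 0.30 (FDR 0.781).

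The promoters of the 2 alpha-actin genes and of Synpo2l are shown because the levels of both actin genes are set side by side at D15 and D21, and Synpo2l had the largest increase of all members at D15. Sequences are from RefSeq on GRCm38.p6, in which 33 of the 39 genes had an entry. Lmod3 was not among them. Each line gives the 250 bases before the annotated start, 5′ to 3′, on the minus strand at chr2:114052876-114053125 for Actc1, chr8:123894776-123895025 for Acta1 and chr14:20668355-20668604 for Synpo2l. The last 12 bases of the Actc1 window lie in an exon of GENCODE M21, and the others hold no exon base. Capitals mark motifs.
Actc1: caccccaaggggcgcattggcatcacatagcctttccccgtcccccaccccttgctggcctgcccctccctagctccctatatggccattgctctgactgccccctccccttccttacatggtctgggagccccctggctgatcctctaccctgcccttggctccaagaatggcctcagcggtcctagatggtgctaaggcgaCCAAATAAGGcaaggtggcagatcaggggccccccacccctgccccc
Acta1: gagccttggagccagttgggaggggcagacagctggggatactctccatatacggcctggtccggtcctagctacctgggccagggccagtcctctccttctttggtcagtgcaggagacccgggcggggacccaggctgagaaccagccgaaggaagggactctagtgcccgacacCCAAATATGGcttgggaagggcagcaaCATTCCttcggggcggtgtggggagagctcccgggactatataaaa
Synpo2l: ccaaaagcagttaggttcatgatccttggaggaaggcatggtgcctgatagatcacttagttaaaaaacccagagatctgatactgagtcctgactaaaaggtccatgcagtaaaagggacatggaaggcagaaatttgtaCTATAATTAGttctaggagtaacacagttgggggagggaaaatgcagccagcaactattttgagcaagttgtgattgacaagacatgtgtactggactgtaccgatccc
Actc1 holds a CArG box, the motif bound by serum response factor, that begins 47 bases before the start. Acta1 holds one at 73 bases and the letters CATTCC, which TEAD factors bind, at 46 bases. Synpo2l holds a MEF2 motif at 109 bases and no CArG box in this window. Over all 32851 promoter windows of this length, both strands searched, 1.47% held a CArG box, 2.92% a MEF2 motif and 12.6% CATTCC. Of the 46 windows of the 33 members, 19.6% held a CArG box, 15.2% a MEF2 motif and 26.1% CATTCC. A CArG box lay in windows of 7 members, namely Acta1, Actc1, Fhl2, Ldb3, Myl3, Myom1 and Nebl. These matches are descriptions of the letters and no measure of binding.

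All 3 thick filament genes fell at least 2-fold at D15. Myl2, the regulatory light chain of ventricular myosin, was at 2022, 2142, 1933 and 2243 CPM in control and 850.2, 491, 1188 and 697 CPM in EAM hearts, and changed by -1.33 ± 0.25 (FDR 0.00085). Myl3, the essential light chain, went from 2595, 2729, 2533 and 2791 CPM in control to 993, 546, 1440.1 and 807 CPM in EAM hearts, a log2 fold change of -1.45 ± 0.27 (FDR 0.000874). Mybpc3 encodes the cardiac myosin-binding protein C, which tunes the crossbridges. It was at 3154, 3197, 3381 and 3689.6 CPM in control and 1381, 1399, 1951 and 1741 CPM in EAM hearts, with a change of -1.01 ± 0.18 (FDR 0.000763). For each of the 3 the highest EAM heart was replicate 3, and it still lay below every control heart.

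Titin and the M-band genes were less uniform at D15. Ttn was at 3589, 2612, 2908 and 3681 CPM in control and 1111, 856, 2336 and 1639 CPM in EAM hearts. The groups did not overlap, but the hearts of each were spread widely (SD 521 CPM in control and 654 CPM in EAM hearts). The change of -1.07 ± 0.31 had an FDR of 0.0111 in the quasi-likelihood test, just outside the limit. Other tests called it lower, with an FDR of 0.000209 in DESeq2, 0.00618 in limma-voom and 0.000472 in the likelihood ratio test, and so did the quasi-likelihood test without EAM replicate 3 (log2 fold change -1.34, FDR 0.000783). Nebl, which encodes nebulette of the Z-disc end of the thin filament, fell from 507, 481, 461 and 495 CPM in control to 169, 134, 253 and 204 CPM in EAM hearts (log2 fold change -1.32 ± 0.17, FDR 9.05e-05). The myomesins cross-link thick filaments at the M-band. Myom1 was at 1244, 1223, 1382 and 1379 CPM in control and 542, 498, 853 and 617 CPM in EAM hearts, and fell by 1.02 on the log2 scale (FDR 0.000457). Myom2 was at 983, 938, 1025 and 749 CPM in control and 695, 586, 951 and 686 CPM in EAM hearts, with overlapping groups and a change of -0.30 ± 0.17 (FDR 0.123).

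All 5 genes of thin filament length and assembly fell at D15, 4 of them at least 2-fold, with a median log2 fold change of -1.47. Lmod3 encodes a leiomodin, which starts and lengthens actin filaments. It was at 130.4, 135, 119.7 and 136 CPM in control and 32.8, 19.0, 40.6 and 34.5 CPM in EAM hearts. Its log2 fold change of -2.0 ± 0.20 (FDR 1.73e-05) was the lowest of the 39 at D15. Lmod2, the main leiomodin of the heart, changed by -0.92 ± 0.20 (FDR 0.00205). Tmod1, the tropomodulin that caps the pointed end, went from 270.05, 293, 277 and 274 CPM in control to 92.7, 87.1, 134 and 103 CPM in EAM hearts, a log2 fold change of -1.38 ± 0.13 (FDR 1.03e-05). Fhod3, a formin needed for sarcomere assembly, was at 417, 461, 463 and 483 CPM in control and 146, 109, 228 and 145 CPM in EAM hearts, and changed by -1.50 ± 0.19 (FDR 9.13e-05). Smyd1, a muscle methyltransferase that works with myosin chaperones, was at 686, 731, 664 and 761 CPM in control and 256, 162, 337 and 247 CPM in EAM hearts, and changed by -1.47 ± 0.19 (FDR 9.42e-05). None of the 5 overlapped between the groups at D15.

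Of the 8 Z-disc core genes, 6 fell at D15, 1 rose and 1 did not pass the test. Actn2, the alpha-actinin that anchors the thin filaments, was at 1684, 1687, 1898 and 1988 CPM in control and 803, 800.5, 1172 and 979 CPM in EAM hearts, and changed by -0.91 ± 0.16 (FDR 0.000591). Myoz2, a calsarcin that tethers calcineurin, and Ldb3, which stabilizes the Z-disc, fell more than 2-fold. Myoz2 went from 1013, 1034, 998 and 1009.9 CPM in control to 369.8, 281, 534 and 328 CPM in EAM hearts (log2 fold change -1.39 ± 0.18, FDR 9.81e-05). Ldb3 went from 1185, 1177, 1162 and 1234 CPM to 413, 386, 592 and 491 CPM (log2 fold change -1.30 ± 0.14, FDR 3.1e-05). Tcap, or telethonin, caps the N-terminus of titin. It was at 684, 951, 866 and 835 CPM in control and 328, 107, 522 and 232 CPM in EAM hearts, so its EAM hearts differed widely among themselves, and the change was -1.45 ± 0.39 (FDR 0.00759). The call was lost without any 1 of 6 hearts (all controls and EAM replicates 1 and 4), at log2 fold changes of -1.53 to -1.32 and an FDR of 0.0112 to 0.0283, and in the fit blocked on replicate number (FDR 0.0106). Csrp3, the muscle LIM protein of the Z-disc, was at 951, 988, 942 and 954 CPM in control and 547, 527, 637 and 521 CPM in EAM hearts, a tight pair of groups with a change of -0.74 ± 0.10 (FDR 9.13e-05). Mypn, or myopalladin, changed by -0.84 ± 0.15 (FDR 0.000825), and Pdlim5 by -0.21 ± 0.11 (FDR 0.0926).

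Synpo2l, an actin-associated protein of the Z-disc, rose at D15. It was at 243, 227, 255 and 202 CPM in control and 384, 333, 425 and 444 CPM in EAM hearts, all EAM hearts being higher, and the log2 fold change was 0.81 ± 0.11 (FDR 0.000124). The other member that rose was Flnc, the muscle filamin that links the Z-disc to the membrane. Flnc was at 316, 288, 357 and 387 CPM in control and 403, 480.2, 476 and 564 CPM in EAM hearts, a change of 0.55 ± 0.13 (FDR 0.0032). Without control replicate 1, without control replicate 2, or in a fit of all 24 samples, Flnc no longer passed (log2 fold change 0.49 to 0.53, FDR 0.0107 to 0.0118) and the count of members that rose was 1. The summed level of 6 fibroblast genes was 1944 to 2463 CPM in control and 8212 to 16933 CPM in EAM hearts at D15, and that of 5 smooth muscle genes 829 to 1032 and 372 to 422 CPM, and the part of these cells in the 2 increases was not tested.

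Of the 4 genes of desmin, filamin and their chaperones, Flnc was the 1 that rose at D15, and the other 3 did not pass the quasi-likelihood test. Des encodes the intermediate filament that links Z-discs side by side. It was at 1625, 1921, 2094 and 2016 CPM in control and 1705, 2285, 1731 and 2009 CPM in EAM hearts, with overlapping groups and a change of 0.05 ± 0.16 (FDR 0.787). Cryab, the alpha-B-crystallin that protects desmin and titin, was at 861, 988, 936 and 968 CPM in control and 713, 776, 698 and 746 CPM in EAM hearts. Its EAM hearts all lay below the controls, yet the change of -0.32 ± 0.09 had an FDR of 0.0126. Hspb7, another small heat shock protein of the heart, changed by -0.42 ± 0.13 (FDR 0.0171). Cryab and Hspb7 were called lower by DESeq2 (FDR 9.78e-06 and 1.95e-08), limma-voom (FDR 0.00639 and 0.00328) and the likelihood ratio test (FDR 0.00518 and 0.000414). Without EAM replicate 3, Hspb7 also passed the quasi-likelihood test (log2 fold change -0.42, FDR 0.00737).

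The Xin proteins bind actin where myofibrils meet the membrane at the intercalated disc. Xirp1 was at 341, 324, 335 and 339 CPM in control and 260.3, 232, 381 and 346 CPM in EAM hearts at D15, a change of -0.10 ± 0.15 (FDR 0.56). The 4 controls sat within a narrow range that the EAM hearts spanned on both sides. Xirp2 was at 1140.2, 1005, 1055 and 1123 CPM in control and 823, 851, 792 and 900.4 CPM in EAM hearts, a change of -0.32 ± 0.10 (FDR 0.016) in which no EAM heart reached a control heart. It was called lower by DESeq2 (FDR 9.2e-06), limma-voom (FDR 0.00753) and the likelihood ratio test (FDR 0.00524). Nrap, a scaffold of myofibril assembly at the same site, was at 769, 656, 812 and 777 CPM in control and 466, 352, 576 and 482 CPM in EAM hearts, and fell by 0.65 on the log2 scale (FDR 0.00305). Nrap did not pass without EAM replicate 1 (-0.62, FDR 0.0121) or 4 (-0.63, FDR 0.0105).

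Of the 5 genes of stretch signalling and turnover, 4 fell at D15. Fhl2, a LIM protein bound to titin, was at 1753, 1935, 1659 and 1977 CPM in control and 518, 460.1, 638 and 504 CPM in EAM hearts. Its log2 fold change of -1.75 ± 0.14 (FDR 4.57e-06) had the smallest FDR of all members. Cmya5, or myospryn, which lies at the costamere, was at 1183, 1159, 1297 and 1298 CPM in control and 353, 141, 723 and 349.6 CPM in EAM hearts. The EAM hearts ran over a 5.14-fold range, the widest of any member at D15, and the change was -1.62 ± 0.40 (FDR 0.00437). It did not pass without control replicate 3 or 4 or EAM replicate 1 or 4, at log2 fold changes of -1.60 to -1.54 and an FDR of 0.0104 to 0.0172. Trim63, the ubiquitin ligase MuRF1 that marks sarcomere proteins for degradation, was at 225, 265, 263 and 255 CPM in control and 108, 75.9, 167 and 98.5 CPM in EAM hearts, a change of -1.13 ± 0.21 (FDR 0.000799). Ankrd23, a stretch-responsive ankyrin repeat protein, changed by -0.66 ± 0.15 (FDR 0.00288), and by -0.63 (FDR 0.011) without EAM replicate 1. Its relative Ankrd1, which is well known to rise with load, was at 2134, 1872, 2103 and 1693 CPM in control and 2675, 1794, 2849.6 and 2784 CPM in EAM hearts. EAM replicate 2 lay among the controls and the other 3 above them, and the change of 0.41 ± 0.20 (FDR 0.085) did not pass the test. Without that heart it was 0.57 (FDR 0.00803).

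**Figure D3:**
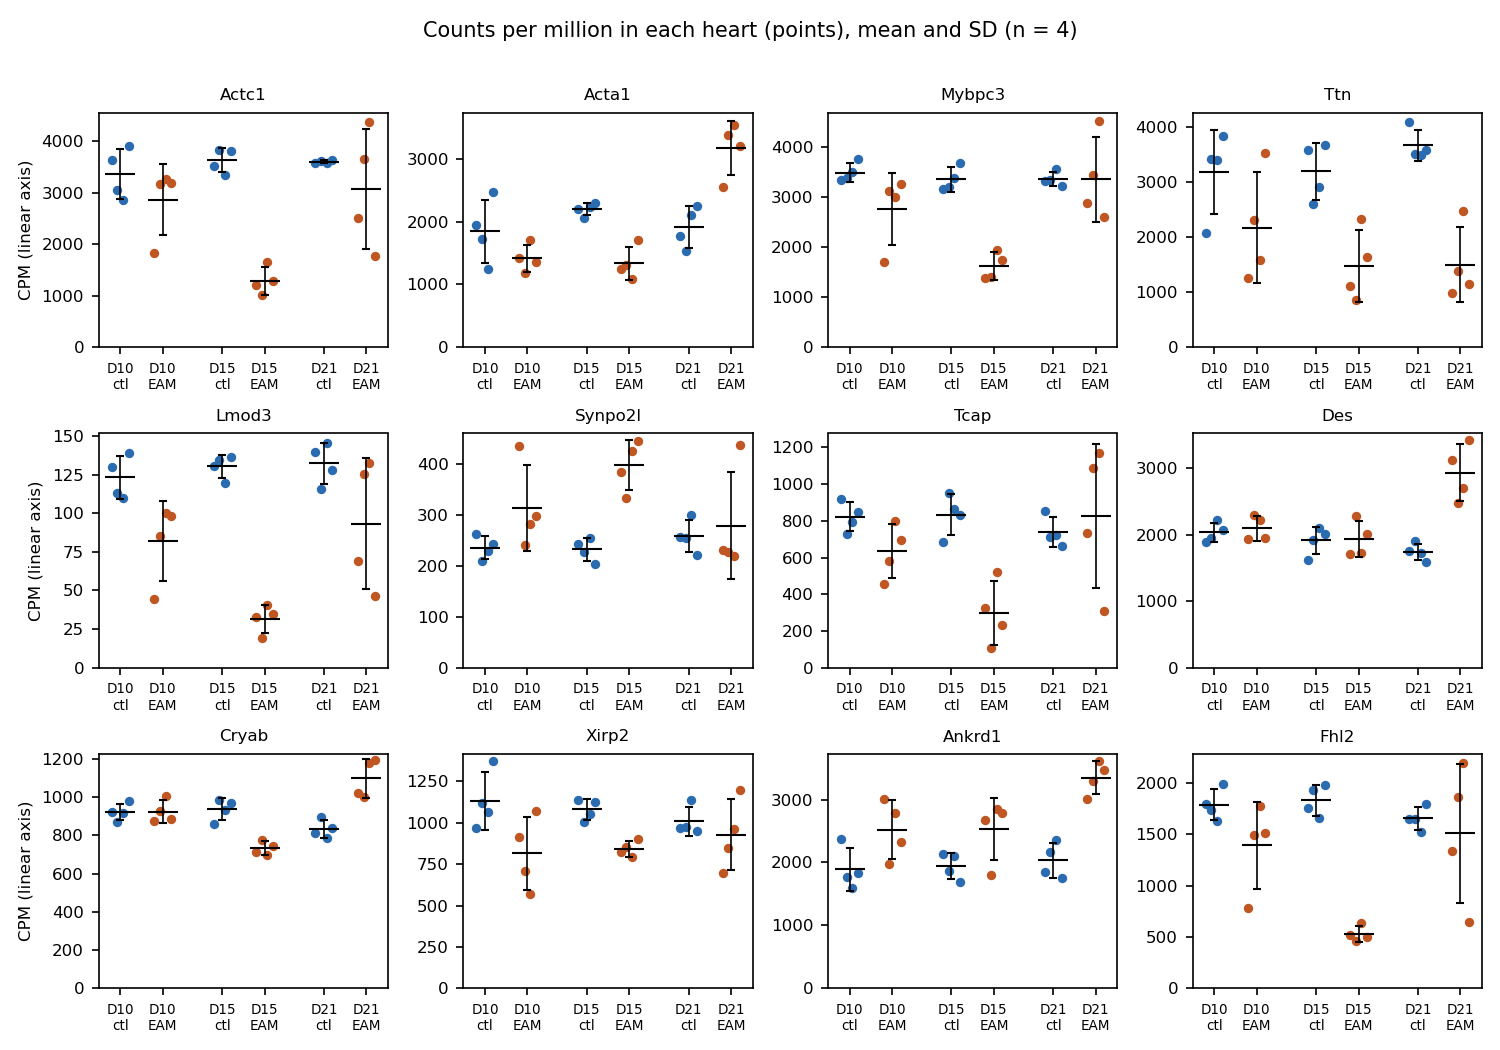
CPM of 12 of the genes in each heart (vertical linear axes from 0), blue for control and orange for EAM at D10, D15 and D21, with mean and SD (n = 4). Actc1, Lmod3 and Fhl2 lie low in all EAM hearts at D15, Ttn lies low at D15 and D21, and Acta1, Des, Cryab and Ankrd1 lie above all controls at D21.

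At D10, 0 of the 39 genes passed an FDR of 0.01 in edgeR's quasi-likelihood test, and 0% of all 15029 genes tested did so. DESeq2, limma-voom and the likelihood ratio test of edgeR each called 0 members, and of all genes they called 0.0865%, 0% and 0.0133% lower and 0.413%, 0% and 0.353% higher. At an unadjusted p under 0.05, 3 members were lower and 2 higher, where 5.67% and 9.49% of all genes were. Log2 fold changes lay between -0.60 for Lmod3 and 0.70 for Tnni1, with a median of -0.19 and a smallest FDR of 0.328. All EAM hearts lay below all controls in 2 members and above them in 0, which held for 4.22% and 4% of all genes. EAM replicate 1 stood apart from the other 3 at this time point. It was the lowest EAM heart for 32 of the 39 members, with 3.92% of its counts on them, and its leukocyte genes summed to 1961.7 CPM against 369.9 to 750.2 in the others. Actc1 was at 1829.5, 3173, 3273 and 3184 CPM in the EAM hearts at D10 and 3629.5, 3049, 2863 and 3918 CPM in the controls. Synpo2l, in contrast, was highest in that same heart, at 435, 241, 282 and 297 CPM in EAM and 262, 210.01, 228 and 242 CPM in control hearts. Without this heart the median log2 fold change at D10 was -0.07.

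At D21, 0 of the 39 genes passed in edgeR's quasi-likelihood test, against 3.43% of 15266 genes lower and 4.94% higher. At an unadjusted p under 0.05, 9 members were lower and 5 higher, where 21.6% and 25.4% of all genes were, and the smallest FDR was 0.0141. The count depends on the test, since DESeq2 called 4 members lower and 5 higher (10.8% and 15.9% of all genes), the likelihood ratio test 3 and 5 (8.17% and 13.5%), a fit of all 24 samples 3 and 5 (12.3% and 17.9%), and limma-voom 0 and 0 (1.78% and 0.707%). The counts of the first 3 come to 7.69 to 12.8% of the members, near the shares of all genes. At an FDR limit of 0.05, 5 members were lower, 2 of them at least 2-fold, and 5 were higher, against 14.1%, 2.99% and 18.8% of all genes. With the 2-fold limit at an FDR of 0.01, 0 members passed in either direction, against 1.3% of all genes lower and 4.3% higher. Without EAM replicate 3, 6 members were lower and 1 was higher, against 10.6% and 16.8% of all genes. That heart had the lowest leukocyte sum of the 4, at 533.6 CPM against 1062.5 to 2429.5 in the others, and it was the highest EAM heart for 31 of the 39 members. In simulated counts for the D21 hearts, 42% of genes raised 2-fold were called, against 88% for the D15 hearts. The median log2 fold change of the members was -0.16 at D21, and it was -0.08 without EAM replicate 1 and -0.31 without EAM replicate 3.

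The largest fall in value at D21 was that of Ttn. It was at 4097, 3522, 3500.5 and 3584 CPM in control and 982, 1382, 2487 and 1158 CPM in EAM hearts, which did not overlap, and the log2 fold change was -1.28 ± 0.29 (FDR 0.0141). Cmya5 was at 1272, 1265, 1310.03 and 1099 CPM in control and 390.4, 639, 826 and 309 CPM in EAM hearts, a change of -1.18 ± 0.28 (FDR 0.016). Nebl was at 551, 547, 579 and 502 CPM in control and 229, 336, 405 and 183 CPM in EAM hearts, a change of -0.91 ± 0.22 (FDR 0.0172). With Tmod1, these were the 4 members whose EAM hearts all lay below the controls at D21, which held for 18.3% of all genes. Ttn, Cmya5 and Nebl were each called by DESeq2, by the likelihood ratio test and in the fit of all 24 samples. Their exon lengths are 116825, 11850 and 15235 bp, against 3946 bp for Tmod1. Xirp2, of 11979 bp, overlapped between the groups. The part of exon length and of the library code, which goes with EAM at D21, was not tested.

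Another 6 members lay above all controls in every EAM heart at D21 in CPM scaled within that day, which held for 17.8% of all genes. These were Acta1, Pdlim5, Des, Cryab, Hspb7 and Ankrd1. In the CPM printed here, scaled over all 24 libraries, Hspb7 overlapped. Its EAM replicate 4 (1920.7 CPM) lay below control replicate 2 (1950.7 CPM). Des was at 1751, 1897, 1718 and 1590.1 CPM in control and 3127, 2470.1, 2694 and 3427 CPM in EAM hearts (log2 fold change 0.78 ± 0.18, FDR 0.0146). Acta1 was at 1773, 1529, 2113 and 2257 CPM in control and 2553, 3374, 3545 and 3208 CPM in EAM hearts, a change of 0.74 ± 0.20 (FDR 0.0225). Actc1, in the same hearts, was at 3577, 3627, 3575 and 3642 CPM in control and 2507, 3657, 4381 and 1765 CPM in EAM hearts, so the cardiac actin spanned the controls on both sides while the skeletal actin lay above them. Ankrd1 was at 1847, 2164, 2359.7 and 1757 CPM in control and 3015, 3292, 3621 and 3468 CPM in EAM hearts, a change of 0.74 ± 0.18 (FDR 0.0164). Cryab was at 813, 898, 785 and 837 CPM in control and 1021, 1000.5, 1178 and 1196 CPM in EAM hearts, a change of 0.42 ± 0.12 (FDR 0.0273). Of these 6, all but Hspb7 were called by DESeq2, by the likelihood ratio test and in the fit of all 24 samples.

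Several genes that were low in all EAM hearts at D15 were no longer below the controls in EAM replicates 2 and 3 at D21, as in the 4 genes that follow. Fhl2 was at 1333, 1861, 2195 and 648 CPM in the EAM hearts and 1526 to 1799 CPM in the controls. Lmod3 was at 68.9, 126, 132 and 46.3 CPM in the EAM hearts and 116 to 145 CPM in the controls. Tcap was at 736, 1091, 1172 and 311 CPM in the EAM hearts and 662 to 855 CPM in the controls, so replicates 2 and 3 exceeded every control and replicate 4 lay below all of them. Mybpc3 was at 2885, 3435, 4523 and 2599 CPM in the EAM hearts and 3227 to 3566 CPM in the controls, and the means of the 2 groups were 3360.6 and 3360.6 CPM.

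A fit of all 24 samples tested whether the effect of EAM changed from one time point to the next. From D10 to D15 the effect became lower in 15 members and higher in 0, where 17% and 9.4% of all 16318 genes did so. The median difference over the members was -0.78 on the log2 scale. Lmod3 (-1.45 ± 0.39, FDR 0.006) and Fhl2 (-1.43 ± 0.36, FDR 0.00479) had the largest differences. From D15 to D21 it became higher in 16 members and lower in 0, against 8.67% and 3.79% of all genes, with a median difference of 0.74. Among the 16 that passed, Fhl2 (1.65 ± 0.37, FDR 0.00355), Lmod3 (1.54 ± 0.39, FDR 0.00722) and Acta1 (1.45 ± 0.26, FDR 0.0015) had the largest differences. In titin, nebulette and the M-band, 0 of 4 genes passed from D15 to D21, and Ttn differed by -0.19 ± 0.47 (FDR 0.785). Both comparisons use the same D15 hearts, so they are not independent of each other.

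At an FDR limit of 0.05, 26 members were lower from D10 to D15 and 0 were higher, against 26.9% and 19.4% of all genes. Both counts at the limit of 0.01 moved when single hearts were left out. From D10 to D15 the count of 15 fell to between 4 and 9 when any of 11 hearts was left out (control replicates 1, 2 and 3 and EAM replicates 2, 3 and 4 of D10, control replicates 2 and 4 and EAM replicates 1, 2 and 4 of D15), and the share of all genes called lower fell from 17% to between 10.6 and 13.6% in those fits. It was 23 without EAM replicate 1 of D10, against 22.6% of all genes. From D15 to D21 the count of 16 fell to between 7 and 9 when any of 13 hearts was left out (all controls of D15 and D21, EAM replicates 1, 2 and 4 of D15, EAM replicates 2 and 3 of D21), and the share of all genes called higher fell from 8.67% to between 4.06 and 7.19%. It was 24 without EAM replicate 3 of D15, against 12.9% of all genes. In control hearts alone, 0 of the 39 genes differed between D15 and D10 and 0 between D21 and D10 by edgeR, DESeq2 or limma-voom, and 1 and 0 members passed at an unadjusted p under 0.05. At that limit, 3.21% of all genes were lower and 3.58% higher between D15 and D10, and 4.77% and 7.66% between D21 and D10. At the FDR limit, 0.0735% of all genes were lower and 0.00613% higher between D15 and D10, and 0.116% and 0.202% between D21 and D10. Atrial genes did differ among the control hearts, 1 of 5 passing between D15 and D10 and 2 of 5 between D21 and D10.

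A second scale sets each library to the 32 cardiomyocyte genes outside the sarcomere, so that a change describes a member against the rest of the cardiomyocyte transcripts. On this scale the median of all genes shifted to 0.25 at D10, 1.38 at D15 and 0.43 at D21, so a member near 0 has moved with the reference genes and not with the bulk of genes. At D15, 15 members were higher and 1 was lower, against 72.9% and 1.4% of all genes, and the median of the members was 0.36. Thick filament genes lay close to 0, with Myl2 at -0.08 ± 0.15, Myl3 at -0.21 ± 0.15 and Mybpc3 at 0.32 ± 0.17, and 0 of 3 passed. The gene that was lower was Lmod3, at -0.72 ± 0.19 (FDR 0.00258). Lmod3 no longer passed with the replicate number as a block, or without control replicate 1, 2 or 4 or EAM replicate 1, whereas 2 genes were lower without EAM replicate 2 or 3.

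The scale moves all genes up alike at D15, so being higher on it, as 72.9% of all genes were, does not set a member apart. All 4 of desmin, filamin and the chaperones were higher on the cardiomyocyte scale, with Flnc at 1.94 ± 0.24 (FDR 3.67e-06), Des at 1.48 ± 0.25 (FDR 7.42e-05) and Cryab at 1.08 ± 0.22 (FDR 0.000406). Xirp1 was at 1.21 ± 0.18 (FDR 2.11e-05), Xirp2 at 1.07 ± 0.22 (FDR 0.000374) and Nrap at 0.66 ± 0.17 (FDR 0.002), which are all below the median of all genes. Synpo2l had the largest value, 2.16 ± 0.21 (FDR 3.3e-07), and Ankrd1 was at 1.72 ± 0.17 (FDR 4.28e-07). Pdlim5 (1.18), Tnni1 (1.19) and Myom2 (1.01) were also at least 2-fold higher. With single hearts left out, the call of Tnni1, on its few reads, was lost in 3 fits and that of Nrap in 1. Of the 39 genes, 4 (Synpo2l, Flnc, Ankrd1 and Des) exceeded the shift of 1.38 that all genes show on this scale.

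At D21 on the cardiomyocyte scale, 1 member was lower and 0 were higher, against 0.242% and 0.0917% of all genes, with 4 lower and 14 higher at an unadjusted p under 0.05 (5.76% and 37.4% of all genes) and 1 lower and 0 higher by limma-voom (0.197% and 0.0131% of all genes). The member was Cmya5, at -0.87 ± 0.11 (FDR 0.0086), which did not pass when any heart but EAM replicate 3 was left out. With the replicate number as a block, 2 genes were lower (Cmya5 and Ttn) and 1 was higher (Acta1), against 0.478% and 3.5% of all genes. The likelihood ratio test called 3 lower and 5 higher, against 1.62% and 12.7%. Without EAM replicate 3, 3 were lower and 8 were higher, against 1.52% and 21.5%. In the quasi-likelihood fit Ttn was at -0.94 ± 0.16 (FDR 0.0195), Acta1 at 1.17 ± 0.21 (FDR 0.0197) and Des at 1.28 ± 0.28 (FDR 0.0273). At D10, 0 members passed on this scale in any of the tests run, with 1 lower and 5 higher at an unadjusted p under 0.05, where 0.772% and 12.8% of all genes were.

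Ratios of related genes within a library do not depend on the scale. The log2 ratio of Acta1 to Actc1 counts was -1.01, -1.25, -0.76 and -0.69 in the controls of D21 and 0.03, -0.12, -0.31 and 0.86 in the EAM hearts. All EAM hearts were higher, by 1.04 on average (exact two-sided permutation test, p = 0.0286, adjusted p = 0.0686 over 12 tests). With the hearts of D21 taken as pairs by replicate number, exact permutation within the 4 pairs gave p = 0.125, the smallest that 4 pairs allow. At D15 the ratio was -0.68, -0.90, -0.58 and -0.72 in controls and 0.04, 0.36, -0.60 and 0.40 in EAM hearts, and EAM replicate 3 lay among the controls (difference 0.77, exact permutation p = 0.0571, adjusted p = 0.114). The smallest p that 4 against 4 unpaired hearts allow is 0.0286, so none of the 12 could pass 0.05 after adjustment unless at least 7 of them reached it.

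The ratio of Myom2 to Myom1 at D15 was -0.34, -0.38, -0.43 and -0.88 in controls and 0.36, 0.24, 0.16 and 0.15 in EAM hearts (difference 0.73, exact permutation p = 0.0286, adjusted p = 0.0686). Xirp2 to Xirp1 separated at D10, at 1.55, 1.72, 1.67 and 1.93 in controls and 1.19, 0.91, 0.75 and 1.35 in EAM hearts (difference -0.67, exact permutation p = 0.0286, adjusted p = 0.0686), although no member passed on its own there. This ratio differed by -0.20 at D15 and by 0.11 at D21, with overlapping groups. Tnni1 to Tnni3 was higher in every EAM heart at D10 and at D15, by 0.92 and 1.24 (exact permutation p = 0.0286, adjusted p = 0.0686 for each), on the few reads of Tnni1. At D21 the difference was -0.39, with overlapping groups. None of the 12 ratios passed an adjusted p of 0.05. The EAM hearts of D10 held more atrial RNA than their controls, and its part in the ratios was not tested.

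**Figure D4:**
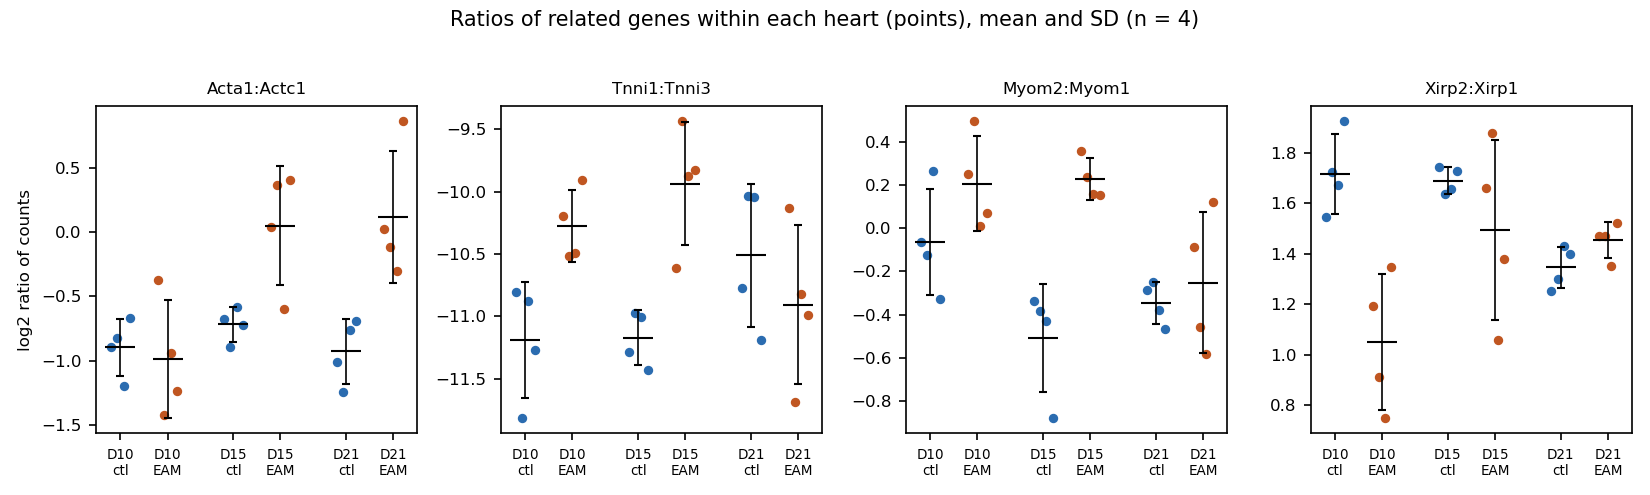
Log2 ratio of the counts of 2 related genes in each heart (vertical axes, not from 0), blue for control and orange for EAM, with mean and SD (n = 4). Acta1:Actc1 lies above all controls in the 4 EAM hearts of D21, and Xirp2:Xirp1 lies below all controls in the 4 EAM hearts of D10.

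A list of 53 further genes of the sarcomere, Z-disc and costamere was read beside the 39. Ankrd2 and Myoz1 reached the filter through the EAM hearts, with 10 reads in at most 1 control library, and are described without a test. Of the other 51 genes, 33 were lower and 3 higher at D15, against 31.2% and 33.3% of all genes, and their log2 fold changes had a median of -0.86. Myh7b, a slow myosin heavy chain, had the lowest value (-2.31 ± 0.41 (FDR 0.000658)), from 83.2, 95.03, 115 and 88.2 CPM in control to 20.2, 6.31, 33.8 and 15.1 CPM in EAM hearts. Tnnt1, the slow skeletal troponin T (-1.87 ± 0.24 (FDR 8.37e-05)), and Itgb1bp2, or melusin, a stretch sensor of the costamere (-1.82 ± 0.19 (FDR 2.44e-05)), followed. Ankrd2, the relative of Ankrd1 that is typical of stretched skeletal muscle, was at 0.521, 0.236, 0.311 and 0.236 CPM in control and 6.16, 6.62, 6.80 and 5.48 CPM in EAM hearts, from 4 to 10 reads a library in control and 142 to 189 in EAM hearts. Myoz1, the calsarcin of fast muscle, was at 0.313, 0.177, 0.259 and 0.471 CPM in control and 0.957, 1.72, 0.718 and 1.66 CPM in EAM hearts, from 3 to 8 and 17 to 49 reads. Fhl1, a LIM protein that senses strain on titin, was at 193, 222, 217 and 228 CPM in control and 306, 379, 267 and 374 CPM in EAM hearts, a change of 0.66 ± 0.12 (FDR 0.000792). At D21, 9 of 51 were lower and 1 higher, against 3.43% and 4.94% of all genes. The latter was Fhl1 (0.72 ± 0.13 (FDR 0.00725)), and Ankrd2 had 4 to 9 reads in control and 34 to 242 in EAM libraries. The 3 lowest of the 9 were Myl7, Mybphl and Myl4, which are made in atrial muscle.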

How the data were processed

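Part of each of the 24 hearts gave RNA that was sequenced as 75 base read pairs with a directional kit. The authors aligned the reads to GRCm38 with HISAT2 2.0.4, removed duplicates with Picard and deposited the raw counts that featureCounts gave for Ensembl genes. They were not normalized, and their strand setting is not stated in the sources used here. The counts of the single samples and of the table of all samples differed in 0 cells. Of the rows, 92 are spike-in controls with 0 reads and were left out.

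Samples were grouped by their labels. The R version was 4.3.3, with edgeR 4.0.16, DESeq2 1.42.0 and limma 3.58.1. A gene was tested where 4 or more of the 8 libraries of a time point (4 of 24 for differences between time points) had 10 reads or more. Counts were scaled by TMM and tested by the quasi-likelihood method of edgeR, adjusted after Benjamini and Hochberg over all genes tested. FDR denotes this adjusted p. A call needs an FDR under 0.01, and 2-fold calls a 2-fold change as well. The cardiomyocyte scale replaces TMM by the median ratio over 32 reference genes. Ratios were tested with exact permutation in scipy 1.17.1 at 0.05. Tables and figures used Python 3.11.15, pandas 2.3.3, numpy 2.4.6 and matplotlib 3.10.9. Exon lengths and positions are from GENCODE M21.

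The members and the gene lists were chosen with earlier results of these data known. Any of the 39 genes may be named. Levels in every heart at D15 are given for 19 genes of main interest and for members called at 2-fold, and at other days for those described there. From the list of 53 further genes, the 3 largest changes in each direction at D15 past an FDR of 0.01 are named, with no test for those that reached the filter through one group. The 3 atrial genes named at D21 and the genes named under alternatives were chosen after their values were seen. Alternatives were other tests, scalings, filters, limits and leaving out each library. The cardiomyocyte scale with other tests was added after the data were seen. A count of 3 equals 0.120 to 0.190 CPM in single libraries, which covers counting error only.

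What the replicate numbers stand for is not in the labels. Same-numbered EAM and control hearts deviated from their group means together, with a correlation over 0.1, in all 4 pairs at D21 (0.11 to 0.317), in 2 of 4 at D10 and in 0 of 4 at D15. That limit was met in all pairs at D21 only, which does not show that the numbers mark pairs. The 2 correlations at D10 (0.388 and 0.437) were higher than any at D21. At D21, EAM replicate 1 correlated more with a control of another number. All values reported are from tests without the pairing unless they name it, and fits with the replicate number as a block were run as alternatives at each time point and for the differences between them. Exact permutation within pairs for the D21 ratios was added after the data were seen. Fits were tested on simulated counts, in which 200 genes were changed by known folds.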

Additional observations from a re-analysis of the deposited data

Results flagged for a closer look

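In 12 of 264 groups of 4 values tested, 1 heart lay far from the other 3 by Dixon's test, and chance gives about 5%. In EAM hearts at D10, replicate 1 was the low one for Actc1 (1829.5 CPM), Tnnt2 (2709 CPM), Mybpc3 (1698 CPM) and Lmod2 (461 CPM), and replicate 3 was the high one for Hspb7 (2171 CPM). The leukocyte sum of replicate 1 was the highest of the EAM hearts at D10, and its part in these low values was not tested. In control hearts, Actn2 was high in replicate 4 at D10 (2051 CPM), Ttn was high in replicate 1 at D21 (4097 CPM), Xirp2 was high in replicate 3 at D21 (1137 CPM) and Flnc was low in replicate 4 at D21 (361 CPM). The share of counts on the 39 genes was high in control replicate 4 at D15 (5.35%). Synpo2l was high in EAM replicate 4 at D21 (436 CPM), the heart with the highest leukocyte sum of that group, and Ankrd1 was low in EAM replicate 2 at D15 (1794 CPM).

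The effect of EAM differed between D15 and D10 in 15 genes, by a contrast in edgeR's quasi-likelihood fit of all 24 samples. The difference of the log2 fold changes (D15 minus D10) was -1.26 for Actc1, -1.21 for Tnni3, -0.96 for Tnnc1, -0.78 for Tpm1, -1.18 for Myl2, -1.29 for Myl3, -1.45 for Lmod3, -1.13 for Tmod1, -1.22 for Fhod3, -1.19 for Smyd1, -1.26 for Myoz2, -1.12 for Ldb3, -0.70 for Csrp3, -1.01 for Trim63 and -1.43 for Fhl2. Between D21 and D15 it differed in 16 genes, with a difference (D21 minus D15) of 1.26 for Actc1, 1.45 for Acta1, 1.24 for Tnni3, 1.15 for Tnnc1, 1.05 for Tpm1, 1.20 for Myl2, 1.33 for Myl3, 1.05 for Mybpc3, 1.54 for Lmod3, 1.07 for Myoz2, 0.81 for Csrp3, 0.69 for Pdlim5, 0.74 for Des, 0.75 for Cryab, 0.69 for Hspb7 and 1.65 for Fhl2. Of these genes, 10 are in both lists, and the lists share the D15 hearts.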

How the results depend on the processing

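Of 626 alternative values for the 44 main values, 559 stayed on the same side of their limit, within 1.5 times the count, or within the spread between hearts, and of 6474 alternative values for single genes, 6056 kept their call, 285 lost it, 133 gained it and 0 reversed. Medians and shares of counts stayed within the spread between hearts under every alternative run. At D15 the count of members that rose was 1 in a fit of all 24 samples, and the count lower on the cardiomyocyte scale was 0 with the replicate block. At D21 the count lower at 2-fold was 2 with DESeq2, the likelihood ratio test, all 24 samples or an FDR limit of 0.05. At that FDR limit 2.99% of all genes were lower at 2-fold, and the 2-fold shares under the other settings are not given here. The count lower at any fold was 4 with DESeq2, 3 with the likelihood ratio test and all 24 samples, and 5 at an FDR limit of 0.05. The count higher was 5 with DESeq2, the likelihood ratio test, all 24 samples or an FDR limit of 0.05, and 2 without the filter. The share of all genes without the filter is not given here. On the cardiomyocyte scale at D21 the count lower was 2 with the replicate block, 0 with the earlier quasi-likelihood form and 3 with the likelihood ratio test, and the count higher was 1 with the block and 5 with the likelihood ratio test. The effect of EAM was lower at D15 than at D10 in 26 members at an FDR limit of 0.05, against 26.9% of all genes. The cause of these differences was not tested. The block changed no other count of calls by over 1.5 times.

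With each library left out in turn, the D15 counts were 21 to 29 lower, 14 to 21 lower at 2-fold, 1 to 3 higher, and on the cardiomyocyte scale 11 to 19 higher and 0 to 2 lower. The D21 counts were 0 to 6 lower, 0 to 3 lower at 2-fold, 0 to 1 higher, and on the cardiomyocyte scale 0 to 8 higher and 0 to 3 lower. The highest of these D21 counts came without EAM replicate 3. There 10.6% of all genes were lower and 16.8% higher, and 1.52% and 21.5% on the cardiomyocyte scale. Shares of all genes are given for some of these fits only, so the other counts describe the members alone. The effect of EAM from D10 to D15 was lower in 4 to 23 members, and that from D15 to D21 higher in 7 to 24 and lower in 0 to 1. Depth limits Tnni1, with as few as 9 reads in a library.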

Other observations

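The hearts of a group differed among themselves on the 39 genes more in EAM than in control groups. The median ratio of the highest to the lowest heart over the members was 1.22, 1.16 and 1.17 in control hearts at D10, D15 and D21, and 1.64, 1.62 and 1.92 in EAM hearts. Cryab was the member with the narrowest range among EAM hearts at each time point, at 1.15, 1.11 and 1.20. The widest ranges were those of Ttn at D10 (2.82), Cmya5 at D15 (5.14) and Tcap at D21 (3.77). At D15, EAM replicate 2 was the lowest heart for 29 members and replicate 3 the highest for 32, and the leukocyte genes summed to 3125, 3107, 2405 and 3043 CPM in replicates 1 to 4. Replicate 1, with the highest of these sums, was the lowest heart for 6 members. At D21, EAM replicate 4 was the lowest for 24 members and replicate 3 the highest for 31, and the leukocyte sums were 1945, 1062.5, 533.6 and 2429.5 CPM in replicates 1 to 4. These are descriptions of 4 hearts a group and were not tested.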
